A study of Homo sapiens with 6 samples.

Results

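The sirtuins are the NAD+-dependent deacylases, and all 7 human genes, SIRT1 to SIRT7, were taken from the count table by their symbols. They are 7 of 31831 genes listed there and 7 of the 17142 genes that passed the low-count filter and were tested, so no member was lost to the filter. RNA-seq was performed in HK-2 cells, an immortalized human line derived from proximal tubule epithelium, with 3 libraries per group. Both groups were kept in 30 mM glucose for 72 h, a treatment that is described in the methods and not in the labels. The control group (HG-NC) received an empty control vector, and the other group (HG-OE) received a lentiviral construct (vector LV5) overexpressing hnRNP-F, an RNA-binding protein that takes part in splicing. Both groups come from 1 cell line, and parallel wells of it are described in the methods. The authors describe the libraries of a group as 3 biological replicates. The labels do not tie a library to a separate culture, so the p-values measure the spread between these libraries.

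Sirtuins remove acetyl groups, and some of them other acyl groups such as succinyl or malonyl, from lysines of proteins, and each reaction consumes a molecule of NAD+. SIRT1, SIRT6 and SIRT7 act mainly in the nucleus on histones and transcription factors, SIRT2 acts mainly in the cytosol, and SIRT3, SIRT4 and SIRT5 act in the mitochondria. In renal tubule cells, which depend on mitochondrial oxidation, SIRT1 and SIRT3 are studied as enzymes that protect against metabolic and oxidative stress.

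The gene of hnRNP-F, HNRNPF, was counted 7733, 8623 and 8692 times in HG-NC replicates 1, 2 and 3 and 12492, 13155 and 12397 times in HG-OE replicates 1, 2 and 3. The overexpressing libraries were the higher ones, at a log2 fold change of 0.48 (edgeR, adjusted p = 2.80e-07), and reads of the construct and of the cell's own gene cannot be told apart. The libraries held 25507595 to 29444841 counts. PAX8, a transcription factor of the renal epithelial lineage, was counted 15331 to 18291 times in the HG-NC libraries and 11953 to 13747 times in the HG-OE libraries. Levels below are given in CPM, which are counts scaled to library size. Mature proximal tubule markers were low, with 5 of 9 tested, 1 (SLC22A6) not among the genes listed, and a summed level of 8.26 to 12.0 CPM in the HG-NC libraries and 13.9 to 16.9 CPM in the HG-OE libraries. That sum rose mainly through MME, whose mean went from 4.26 to 8.64 CPM with hnRNP-F overexpression (log2 fold change 1.02, edgeR, adjusted p = 3.49e-05). The other tested members of this list had an adjusted p above 0.05 and leaned both ways. By log2 fold change, CUBN (-0.30) and SLC5A2 (-0.11) leaned lower, and SLC34A1 (0.34) and GGT1 (0.21) leaned higher. LRP2, the endocytic receptor megalin, was at 0 in all libraries but HG-OE replicate 3. HG-OE replicate 3 stood apart from the other libraries. Its 5 squamous markers summed to 46.8 CPM, against 0.0358 to 0.103 CPM in the other 5 libraries. KRT5, KRT14 and KRT6A were at 0 in those 5. Its 6 liver markers summed to 634 CPM, against 461 and 463 CPM in the other HG-OE libraries. In HG-NC they summed to 265 to 276 CPM. SERPINA1 made up most of each liver sum. It measured 258 to 275 CPM in HG-NC and 457, 458 and 395 CPM in HG-OE replicates 1 to 3. ALB was counted 0, 1 and 4359 times in HG-OE replicates 1 to 3, and 4, 1 and 78 times in HG-NC. APOB was counted 0, 0 and 1583 times in HG-OE, and 5, 0 and 53 times in HG-NC. The leukocyte markers, of which only CD14 was tested and PTPRC had at most 2 counts, summed to 14.8 CPM in HG-OE replicate 3. They summed to 4.24 and 4.88 CPM in the other HG-OE libraries and 2.9 to 3.19 CPM in HG-NC. The fibroblast markers summed to 35.5 to 38.9 CPM without and 31.8 to 41.1 CPM with hnRNP-F overexpression, and the endothelial markers to 0.393 to 0.591 and 0.990 to 1.38 CPM. The fibroblast sum hides differences between its members. COL1A2 was at 0 in all libraries but HG-OE replicate 3, which had 141 counts. PDGFRB rose from 0.453 to 2.15 CPM (log2 fold change 2.25, edgeR, adjusted p = 1.90e-05). COL1A1 and LUM, which made up most of the sum, leaned lower with an adjusted p above 0.05. Of the endothelial markers only VWF was tested. Each sirtuin's log2 fold change is therefore given with and without HG-OE replicate 3. The part of these cell markers in the fold changes was not tested.

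Of the 7 sirtuins, SIRT5 and SIRT3 rose and SIRT1 fell in cells overexpressing hnRNP-F at an adjusted p under 0.05. That is 3 of 7, in a comparison that called 51.8% of all genes tested, 25.9% as higher and 25.9% as lower. The count is near that background. None of the 7 reached a 2-fold change in edgeR, also at an unadjusted p under 0.05, or in DESeq2 or limma, while 5.82% of all genes tested passed both criteria in edgeR. The median log2 fold change of the 7 was 0.07, and that of all genes tested was 0.01. The libraries of the groups did not overlap for the same 3 sirtuins, and they did not overlap for 59.0% of all genes tested.

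**Figure D1:**
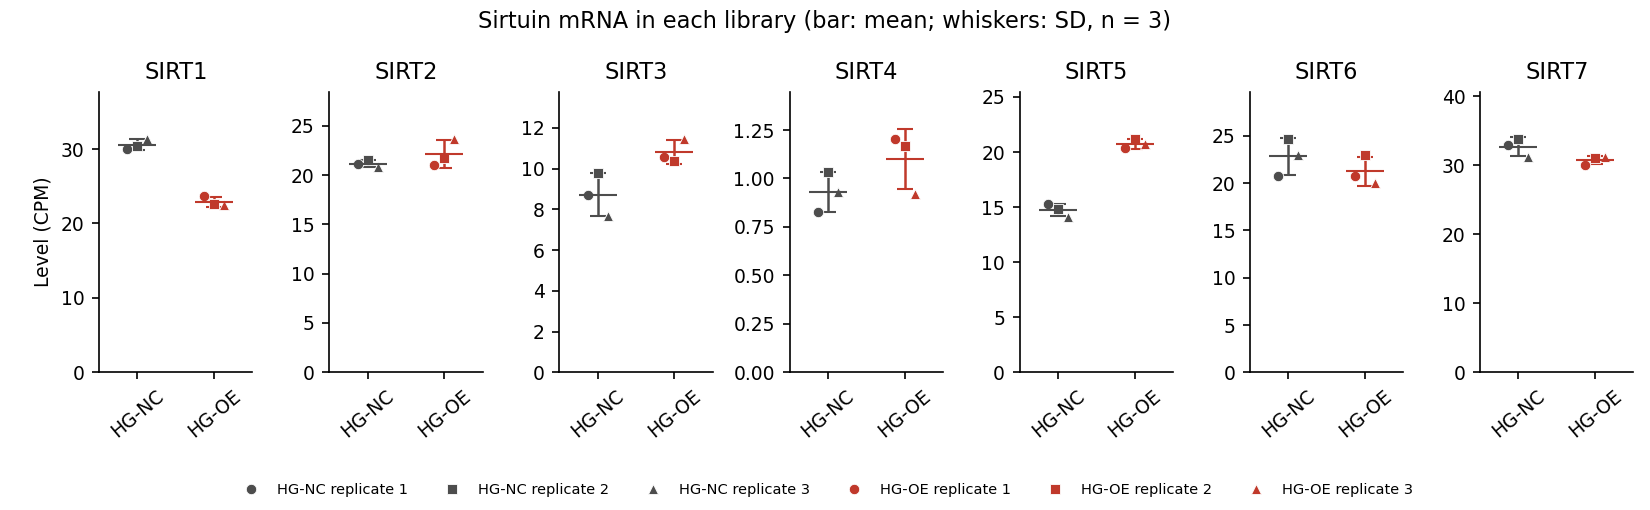
The level of each sirtuin is plotted in CPM on a linear axis from 0, with 1 panel per gene, HG-NC in grey and HG-OE in red. Points are libraries and bars with whiskers are the mean and SD of 3 libraries. The groups are separate for SIRT1, SIRT3 and SIRT5 and overlap for the other members.

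The DNA before the start sites of the 3 called genes is shown because these members moved in different directions. The sequences are the 250 bases upstream of the most upstream RefSeq start site of each gene (build GRCh38.p14), read 5′ to 3′ on the strand of the gene. They lie at chr10:67884406-67884655 on the plus strand for SIRT1, at chr11:236932-237181 on the minus strand for SIRT3 and at chr6:13574279-13574528 on the plus strand for SIRT5. RefSeq and GENCODE place the starts differently: the SIRT5 window lies inside the gene as GENCODE draws it, which begins at 13574227. Capitals mark matches, on either strand, to 6 short motifs. The E-box was searched as CACGTG. The core of the NRF1 motif was searched as GCGCATGC. The GC box was searched as GGGCGG. The core of the ETS motif was searched as CCGGAA. The other motifs were the TATA box, searched as TATAAA, and the CCAAT box, searched by these letters.
SIRT1 promoter: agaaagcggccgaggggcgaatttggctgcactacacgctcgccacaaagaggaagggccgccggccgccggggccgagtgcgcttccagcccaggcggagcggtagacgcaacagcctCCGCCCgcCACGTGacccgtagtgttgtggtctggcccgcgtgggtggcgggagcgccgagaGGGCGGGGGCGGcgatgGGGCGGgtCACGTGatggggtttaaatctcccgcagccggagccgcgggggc
SIRT3 promoter: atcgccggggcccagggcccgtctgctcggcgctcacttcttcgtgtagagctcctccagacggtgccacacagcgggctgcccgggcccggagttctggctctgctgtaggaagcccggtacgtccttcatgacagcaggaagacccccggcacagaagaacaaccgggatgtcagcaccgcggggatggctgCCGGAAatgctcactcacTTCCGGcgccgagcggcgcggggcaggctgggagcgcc
SIRT5 promoter: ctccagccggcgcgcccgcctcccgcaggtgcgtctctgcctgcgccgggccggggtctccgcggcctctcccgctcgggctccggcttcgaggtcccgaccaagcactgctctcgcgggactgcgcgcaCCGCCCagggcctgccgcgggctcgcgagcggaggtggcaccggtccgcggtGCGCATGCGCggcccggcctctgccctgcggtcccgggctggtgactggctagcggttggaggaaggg

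The promoter of SIRT1, the member that fell, held 2 E-box matches, which begin 123 and 44 bases before the start, and 4 GC-box matches, of which 2 are adjacent, 69 and 63 bases before it. An E-box of these letters was found in 6.34% of 35116 promoters of the same length and a GC box in 42.6%. The SIRT3 promoter held 2 ETS-core matches, 56 and 38 bases before the start and on opposite strands, a motif found in 14.5% of promoters. The SIRT5 promoter held 1 GC box and 2 overlapping matches to the NRF1 core, on opposite strands, 68 and 66 bases before the start, a motif found in 2.63% of promoters. The SIRT6 promoter, of a gene that was not called, held the same overlapping pair 111 and 109 bases before its start. No TATA box was found in the 6 sirtuin promoters searched, against 10.7% of all promoters, and their GC content was 47.2% for SIRT4, whose window belongs to a start upstream of the annotated gene, 58.4% for SIRT2 and 65.6% to 78.0% for the others, with a median of 58.0% over all promoters. A match of letters is a description of these windows, and SIRT7 was not searched.

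Among the nuclear sirtuins, SIRT1, which deacetylates FOXO proteins and histones, was the member that fell. The gene (ENSG00000096717.12) lies on chromosome 10 of GRCh38 from 67884656 to 67918390 on the plus strand, with 9 exons in its MANE Select transcript, the reference transcript of the annotation. SIRT1 was counted 762, 823 and 878 times in HG-NC replicates 1 to 3 and 686, 659 and 657 times in HG-OE replicates 1 to 3. Scaled to library size, these counts gave 29.97, 30.4 and 31.4 CPM in the HG-NC libraries and 23.6, 22.6 and 22.4 CPM in the HG-OE libraries. Every HG-OE library lay below every HG-NC library, and the gap between the groups was wider than the spread within either. The means were 30.6 ± 0.741 and 22.9 ± 0.647 CPM (SD, n = 3 libraries per group), which is a level 25.2% lower in HG-OE. The log2 fold change was -0.42 (standard error 0.0577, 95% interval -0.54 to -0.29, edgeR, adjusted p = 3.91e-05 by Benjamini-Hochberg over all genes tested). Leaving out single libraries moved it between -0.44 and -0.39, and it was -0.40 without HG-OE replicate 3. In RNA from whole cultures, less SIRT1 RNA in each cell and fewer cells that express it cannot be told apart, and the same holds for the values below.

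SIRT6, a histone deacetylase of chromatin and DNA repair, was not called. Its levels were 20.8, 24.7 and 23.0 CPM in the HG-NC libraries and 20.8, 23.0 and 20.0 CPM in HG-OE. The groups overlapped, since replicate 1 of HG-NC was as low as replicate 1 of HG-OE. For SIRT6 the log2 fold change was -0.11 with a 95% interval from -0.28 to 0.07 (edgeR, adjusted p = 0.288). The size of this difference rested on single libraries: it was -0.04 without HG-NC replicate 2, -0.06 without HG-OE replicate 3, and -0.16 and -0.17 without HG-NC replicate 1 and HG-OE replicate 2, with no call in any of these fits. SIRT7, a sirtuin of the nucleolus known for its action on ribosomal DNA and histone H3, measured 33.0, 33.8 and 31.1 CPM in the HG-NC libraries and 30.02, 31.0 and 31.1 CPM in HG-OE. All but 1 of the HG-OE values of SIRT7 lay below the HG-NC values, and the highest one was level with the lowest HG-NC value. Its log2 fold change was -0.09 with an interval from -0.21 to 0.03 (edgeR, adjusted p = 0.208), and it was -0.10 without HG-OE replicate 3. MAFG, on the same strand, shares 105 exon bases with SIRT7, none of them in the MANE Select transcript of SIRT7. MAFG had 1955 counts per library on average, against 884.8 for SIRT7, and fell (log2 fold change -0.47, edgeR, adjusted p = 5.66e-06). Whether MAFG reads enter the SIRT7 counts was not tested. Beside SIRT1, therefore, a fall of the other nuclear sirtuins was not detectable with 3 libraries per group, and the intervals hold falls of up to 0.28 for SIRT6 and 0.21 for SIRT7 on the log2 scale.

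SIRT2, the mainly cytosolic member, which deacetylates tubulin, was not called. It measured 21.1, 21.5 and 20.8 CPM in the HG-NC libraries and 21.0, 21.7 and 23.7 CPM in HG-OE. Only HG-OE replicate 3 lay clearly above the HG-NC range. For SIRT2 the log2 fold change was 0.07 (95% interval -0.08 to 0.21, edgeR, adjusted p = 0.441), and without HG-OE replicate 3 it was 0.01 (adjusted p = 0.888). Without HG-OE replicate 1 it was 0.10, also not called. NFKBIB, on the opposite strand, shares 40 exon bases with SIRT2, none of them in the MANE Select transcript of SIRT2. NFKBIB fell (log2 fold change -0.68, edgeR, adjusted p = 1.83e-07), and whether its reads enter the SIRT2 counts was not tested.

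In the mitochondria, SIRT5 is the enzyme that removes succinyl, malonyl and glutaryl groups, and it had the largest change of the 7. The gene (ENSG00000124523.17) lies on chromosome 6 from 13574227 to 13615158 on the plus strand, with 10 exons in its MANE Select transcript. SIRT5 was counted 388, 401 and 395 times in HG-NC replicates 1 to 3 and 590, 618 and 607 times in HG-OE replicates 1 to 3. These are levels of 15.3, 14.8 and 14.1 CPM in the HG-NC libraries and 20.3, 21.2 and 20.7 CPM in HG-OE. All HG-OE libraries lay above all HG-NC libraries, with HG-OE replicate 3 in the middle of its group. The means were 14.7 ± 0.568 and 20.8 ± 0.448 CPM (SD, n = 3 libraries per group), so the level in HG-OE was 1.41 times that in HG-NC (95% interval 1.27 to 1.57). The log2 fold change was 0.49 (standard error 0.0717, edgeR, adjusted p = 6.04e-05). Leaving out single libraries moved it between 0.47 and 0.52, and it was 0.50 without HG-OE replicate 3. A lncRNA on the opposite strand covers 1058 bases of the exons of the SIRT5 MANE Select transcript, 23.2% of its length, and this lncRNA had 13.3 counts per library on average, against 499.8 for SIRT5. The kit marked the strand, but whether the counting used it is not given in the sources used here.

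SIRT3, the main deacetylase of the mitochondrial matrix, which acts on SOD2 and IDH2, rose by less, and the call was less stable. The gene (ENSG00000142082.15) lies near the end of the short arm of chromosome 11, from 215030 to 236931 on the minus strand. SIRT3 was counted 221, 265 and 215 times in HG-NC replicates 1 to 3 and 307, 302 and 336 times in HG-OE replicates 1 to 3, or 8.69, 9.79 and 7.69 CPM and 10.6, 10.4 and 11.5 CPM. The groups did not overlap, but HG-NC replicate 2 came within 1 CPM of HG-OE replicate 2. The means were 8.72 ± 1.05 and 10.8 ± 0.584 CPM (SD, n = 3 libraries per group). Its log2 fold change was 0.31 (standard error 0.108, 95% interval 0.08 to 0.54, edgeR, adjusted p = 0.0272). The call was lost without HG-NC replicate 1 (log2 fold change 0.31, adjusted p = 0.0720), without HG-NC replicate 3 (0.23, adjusted p = 0.13) and without HG-OE replicate 1 (0.32, adjusted p = 0.0517). Only leaving out HG-NC replicate 3 lowered the fold change among these, and the other fits kept its size with fewer libraries. Without HG-OE replicate 3, the log2 fold change was 0.27 and the adjusted p 0.0369. The Wald test of DESeq2 gave 0.30 and an adjusted p of 0.0853. RIC8A, on the opposite strand, shares 84 exon bases with SIRT3, which is 2.91% of the MANE Select transcript. RIC8A had 3239.7 counts per library on average, against 274.3 for SIRT3. It rose as well, by a log2 fold change of 0.38 (edgeR, adjusted p = 1.61e-05). Whether its reads enter the SIRT3 counts was not tested.

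SIRT4, a mitochondrial ADP-ribosyltransferase and lipoamidase, was the member with the fewest counts. It was counted 21, 28 and 26 times in HG-NC replicates 1 to 3 and 35, 34 and 27 times in HG-OE replicates 1 to 3. The level in HG-OE replicate 3, 0.922 CPM, lay inside the HG-NC range of 0.826 to 1.03 CPM, while the other HG-OE libraries had 1.21 and 1.17 CPM. The log2 fold change of SIRT4 was 0.24 with an interval from -0.33 to 0.80 (edgeR, adjusted p = 0.473), an interval that holds changes as large as those of SIRT3 and SIRT5. Without HG-OE replicate 3 it was 0.35 (adjusted p = 0.358). A change of SIRT4 was not detectable at this depth.

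**Figure D2:**
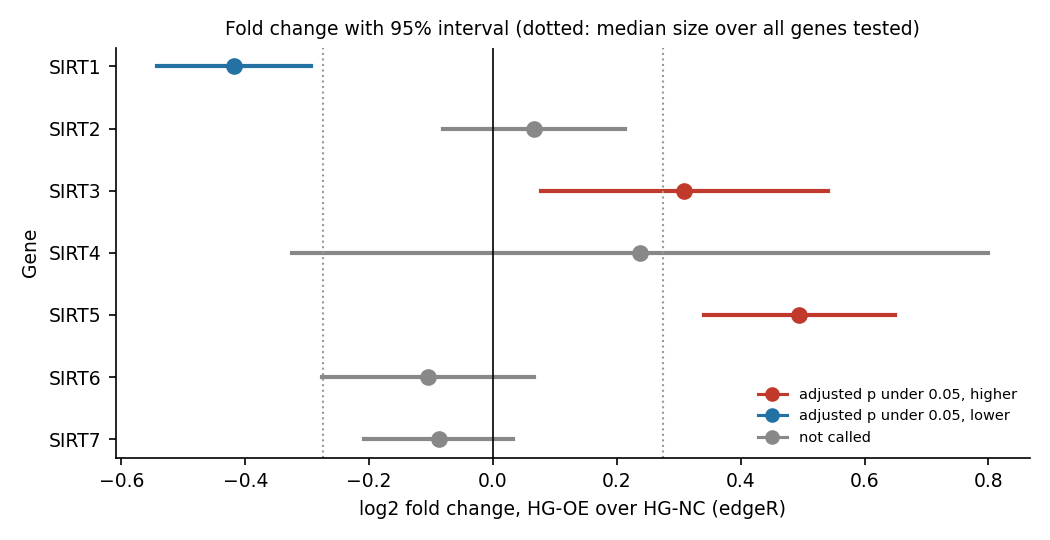
The log2 fold change of each sirtuin between HG-OE and HG-NC is drawn as a point with its 95% interval from the edgeR fit, red for higher, blue for lower and grey for not called. The intervals of SIRT1, SIRT3 and SIRT5 lie off 0, and the dotted lines at the median absolute log2 fold change of all genes tested, 0.27, are passed by the points of these 3 genes.

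The called changes were of ordinary size for these libraries. Over all genes tested the median absolute log2 fold change was 0.27, and over the 12365 genes that averaged 100 or more counts it was 0.24. SIRT5 lay above the upper quartile of these well-counted genes, which was 0.42, SIRT1 lay at it, and SIRT3 lay between the median and that quartile.

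The order of the sirtuins by level depended on the gene length used. In the deposited FPKM, which divide by gene length, SIRT6 was highest in HG-NC with 7.43 ± 0.644 FPKM, followed by SIRT1 with 5.997 ± 0.165, SIRT7 with 4.76 ± 0.187 and SIRT2 with 3.04 ± 0.0436 FPKM (SD, n = 3). The mitochondrial members were the lowest, with 1.403 ± 0.165 FPKM for SIRT3, 1.17 ± 0.0451 FPKM for SIRT5 and 0.680 ± 0.0800 FPKM for SIRT4. No neighbours in this order overlapped in HG-NC. In HG-OE, SIRT1 at 4.44 ± 0.147 FPKM overlapped with SIRT7 at 4.43 ± 0.0656 FPKM, and SIRT3 at 1.72 ± 0.0971 FPKM overlapped with SIRT5 at 1.62 ± 0.0252 FPKM. The lengths implied by the FPKM were 1.12 to 1.13 times the summed length of all annotated exons for each of the 7 genes, so these values are per base of all exons of the gene, also of exons that the main transcript skips. That length was 6134 bases for SIRT7 and 11295 bases for SIRT5, against 1725 and 4564 bases in their MANE Select transcripts.

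With CPM per kilobase of the MANE Select transcript, an alternative chosen after these lengths were seen, SIRT7 came first in HG-NC with 18.9 ± 0.803 CPM per kilobase. SIRT6 followed with 14.3 ± 1.23, SIRT2 with 11.4 ± 0.184 and SIRT1 with 7.45 ± 0.180 CPM per kilobase. SIRT5 with 3.23 ± 0.124 and SIRT3 with 3.03 ± 0.364 CPM per kilobase overlapped, and SIRT4 was lowest with 0.764 ± 0.0857 CPM per kilobase. The mitochondrial members were the lowest 3 on both scales and in both groups, whereas SIRT1 moved from rank 2 to rank 4. The transcripts that the reads came from are not resolved by counts per gene.

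**Figure D3:**
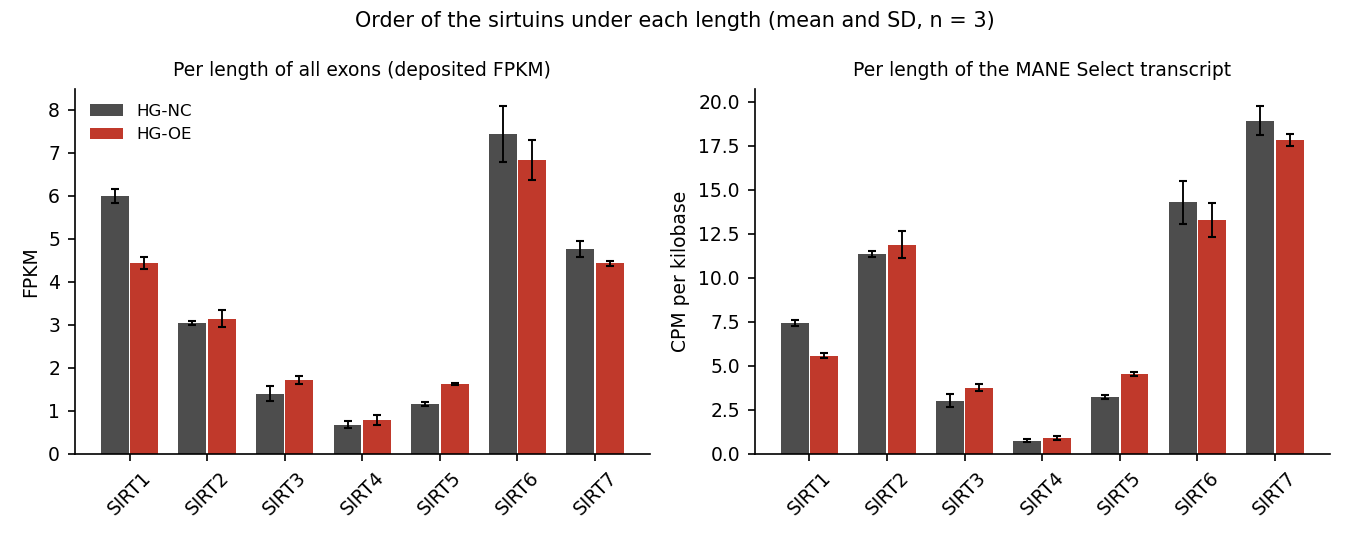
Bars show the mean level of each sirtuin with the SD of 3 libraries, HG-NC in grey and HG-OE in red, on axes that start at 0. The left panel is in FPKM, where SIRT6 is highest, and the right panel is in CPM per kilobase of the MANE Select transcript, where SIRT7 is highest.

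Summed by compartment in FPKM, the nuclear sirtuins gave 17.4, 18.9 and 18.3 FPKM in HG-NC and 15.7, 16.2 and 15.3 FPKM in HG-OE, and the mitochondrial sirtuins gave 3.21, 3.5 and 3.04 FPKM in HG-NC and 4.18, 4.13 and 4.12 FPKM in HG-OE. Both sums were separate between the groups, in opposite directions (exact two-sided permutation test, p = 0.1 for each, the lowest that 6 libraries can give). The mitochondrial share of all sirtuin FPKM was 13.3% ± 0.668 in HG-NC and 18.02% ± 0.292 in HG-OE (SD, n = 3). The sum of all 7 was 24.5 ± 0.947 and 23.0 ± 0.304 FPKM, and in CPM it was 132 and 129.7. These sums depend on the lengths above, and the largest part of the differences came from SIRT1 in the nuclear class and from SIRT5 and SIRT3 in the mitochondrial class, the genes already called above.

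Ratios of sirtuins within a library do not depend on its size. In HG-NC, the FPKM of SIRT1 were 4.84 to 5.52 times those of SIRT5, and in HG-OE they were 2.64 to 2.88 times those of SIRT5. Among the 21 pairs this ratio shifted most, by -0.91 on the log2 scale. The SIRT6 to SIRT7 ratio shifted least, by -0.02, with 1.41 to 1.65 in HG-NC and 1.43 to 1.66 in HG-OE. The groups did not overlap for 14 of 21 pairs, and 12 of these 14 hold at least 1 of the 3 called genes, so the count is not independent of their calls. The others were SIRT2 with SIRT7 and SIRT4 with SIRT6. The share over pairs of other genes was not calculated, and of single genes tested 59.0% did not overlap. The smallest exact permutation p of a pair was 0.1, the smallest that 3 libraries against 3 allow, and adjusted over the 21 pairs it was 0.15.

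**Figure D4:**
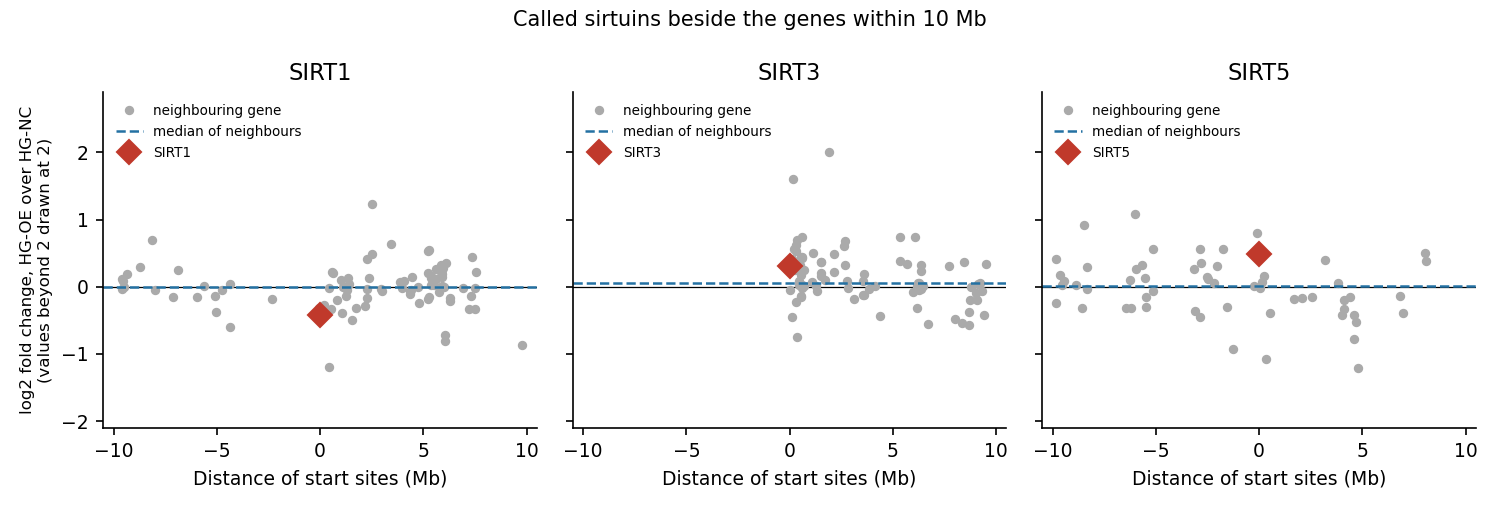
Each grey point is a gene with a mean of at least 100 counts whose start site lies within 10 Mb of that of SIRT1, SIRT3 or SIRT5, drawn by its distance in Mb and its log2 fold change. The diamond is the sirtuin and the dashed line the median of its neighbours, which lies near 0 in all 3 panels, at -0.01, 0.06 and 0.01.

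The genes around the called sirtuins did not share their changes on the median. The 87 genes with a mean of at least 100 counts within 10 Mb of SIRT1 had a median log2 fold change of -0.01, with 22 called higher and 26 called lower. The nearest of them differed from that median. In order of distance they were DNAJC12 (-0.31), HERC4 (-0.28), HNRNPH3 (-1.20), PBLD (-0.01), RUFY2 (-0.33), DNA2 (0.22) and SLC25A16 (0.21). For SIRT5 the median of 57 neighbours was 0.01, with 19 higher and 21 lower, and for SIRT3 the median of 86 neighbours was 0.06, with 33 higher and 13 lower. Relative to these medians, the log2 fold changes were -0.41 for SIRT1, 0.48 for SIRT5 and 0.25 for SIRT3, each within the spread of its replicates from the value above. For SIRT7, whose 148 neighbours had a median of -0.14, the value relative to them was 0.06, and for SIRT2, with 276 neighbours at -0.15, it was 0.22.

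Several genes followed the called sirtuins closely over the 6 libraries. By Pearson correlation of log2 CPM among 12364 genes, those most like SIRT5 were FAM172A (r = 0.9997), PTPRR (r = 0.999) and KIAA0930 (r = 0.998), and those most like SIRT1 were TMEM39A (r = 0.9996), CYB5A (r = 0.999) and SOCS6 (r = 0.999). FAM172A, at 6.57 CPM without and 9.19 CPM with hnRNP-F overexpression, had nearly the log2 fold change of SIRT5, 0.48, and TMEM39A, at 65.3 and 54.8 CPM, had -0.25. The 6 libraries form 2 groups, so such values mostly restate the difference between the groups: 2463 genes had an r above 0.9 with SIRT5 and 2912 with SIRT1.

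Sirtuins need NAD+, and 6 of the 13 tested genes of NAD+ synthesis and salvage were called, 46.2% beside 51.8% of all genes, 3 higher and 3 lower, of 17 on the list. NAMPT, the rate-limiting enzyme of salvage from nicotinamide, fell. It measured 426, 401 and 411 CPM in the HG-NC libraries and 260.0, 234 and 231 CPM in HG-OE, and no HG-OE library came near the HG-NC range. Its log2 fold change was -0.77 (standard error 0.0478, edgeR, adjusted p = 2.73e-08). The falls also included KYNU, the kynureninase of the de novo route from tryptophan (log2 fold change -0.96), and AFMID, the formamidase of the same route (-0.54). Among the rises, NADSYN1, which makes NAD+ from its acid precursor in the last step of the de novo and Preiss-Handler routes, went from 12.0 ± 1.12 to 20.8 ± 2.08 CPM (log2 fold change 0.79, edgeR, adjusted p = 1.13e-05). NMNAT3, the mitochondrial adenylyltransferase, rose by a log2 fold change of 0.39, and NMNAT2, the Golgi and axonal form, had the largest log2 fold change, 2.47, on 4, 7 and 2 counts in HG-NC and 22, 39 and 19 counts in HG-OE. The list's median log2 fold change was 0.10.

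Of the genes that use or transport NAD+, 10 of 14 tested (71.4%, beside 51.8% of all genes) were called, 4 higher and 6 lower, with a median of -0.03. PARP3, an ADP-ribosyltransferase of DNA repair (log2 fold change 0.62), NNMT, which methylates nicotinamide (0.57), and NADK2, the mitochondrial NAD kinase (0.56), had the largest rises. AOX1, which oxidizes methylated nicotinamide (-0.61), NADK, the cytosolic NAD kinase (-0.29), and TNKS2, a tankyrase (-0.21), had the largest falls. CD38, an NAD+ glycohydrolase, was removed by the low-count filter with 2.50 counts per library on average.

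The zinc-dependent deacetylases, the other family of lysine deacetylases, had 8 of 11 members called (72.7%, beside 51.8% of all genes), 4 higher and 4 lower, with a median of -0.06. HDAC11 (0.66), HDAC10 (0.53) and HDAC3 (0.46), the catalytic subunit of the NCoR complex, had the largest rises on the log2 scale, and HDAC2 (-0.33), HDAC6 (-0.26), a tubulin deacetylase like SIRT2, and HDAC9 (-0.25) the largest falls. Among 15 regulators of the sirtuins, 7 were called (46.7%, beside 51.8% of all genes), 2 higher and 5 lower, with a median of -0.02. E2F1, a transcription factor reported to act on the SIRT1 promoter, rose (0.24), as did RPS19BP1, an activator of SIRT1 (0.17). FOXO3 (-0.65), a factor that is both a target and a regulator of SIRT1, HIC1 (-0.39), a repressor of the SIRT1 promoter, and METTL14 (-0.34), a subunit of the m6A methyltransferase, fell. CCAR2, the protein inhibitor of SIRT1, was not called and measured 90.7 ± 3.23 and 90.8 ± 1.86 CPM (SD, n = 3).

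Of 12 genes for mitochondrial substrates, 7 of 10 tested were called, beside 51.8% of all genes, 3 higher and 4 lower, with a median of -0.06. Among the substrates of SIRT3, IDH2 rose and SOD2 fell. IDH2, the NADP-dependent isocitrate dehydrogenase, was 55.5, 59.0 and 56.5 CPM in the HG-NC libraries and 122, 123 and 124 CPM in HG-OE, for a log2 fold change of 1.11 (edgeR, adjusted p = 4.24e-10). SOD2, the superoxide dismutase of the matrix, was 3516, 3388 and 3414 CPM in the HG-NC libraries and 2406, 2291 and 2141 CPM in HG-OE, for a log2 fold change of -0.59 (edgeR, adjusted p = 6.17e-08). Neither gene had overlapping groups. CPS1, the carbamoyl phosphate synthetase that SIRT5 desuccinylates and deacetylates, fell by 1.17 on the log2 scale, from 9.27 ± 0.486 to 4.13 ± 0.572 CPM. ACSS1, the mitochondrial acetyl-CoA synthetase, also fell (-0.59), and SDHA, of respiratory complex II (0.55), and MLYCD, the malonyl-CoA decarboxylase that SIRT4 deacetylates (0.42), rose.

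The genes for nuclear and cytosolic substrates had 6 of 11 tested called (54.5%, beside 51.8% of all genes), 3 higher and 3 lower, with a median of 0.08. SUV39H1 (0.65), a histone methyltransferase, and XRCC6 (0.18), the Ku70 subunit, were among those that rose, on the log2 scale. HIF1A (-0.81), STAT3 (-0.67) and FOXO3 (-0.65) fell. Together the 6 lists held 80 genes, of which 72 were tested, 19 were called higher and 24 lower, 59.7% of those tested beside the 51.8% of all genes, and 3 passed the 2-fold threshold: NMNAT2, IDH2 and CPS1. Without HG-OE replicate 3, 46 of them were called in place of 43. The calls over all genes rose as well in that fit, to 9355 of 17366 tested from 8887 of 17142.

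**Figure D5:**
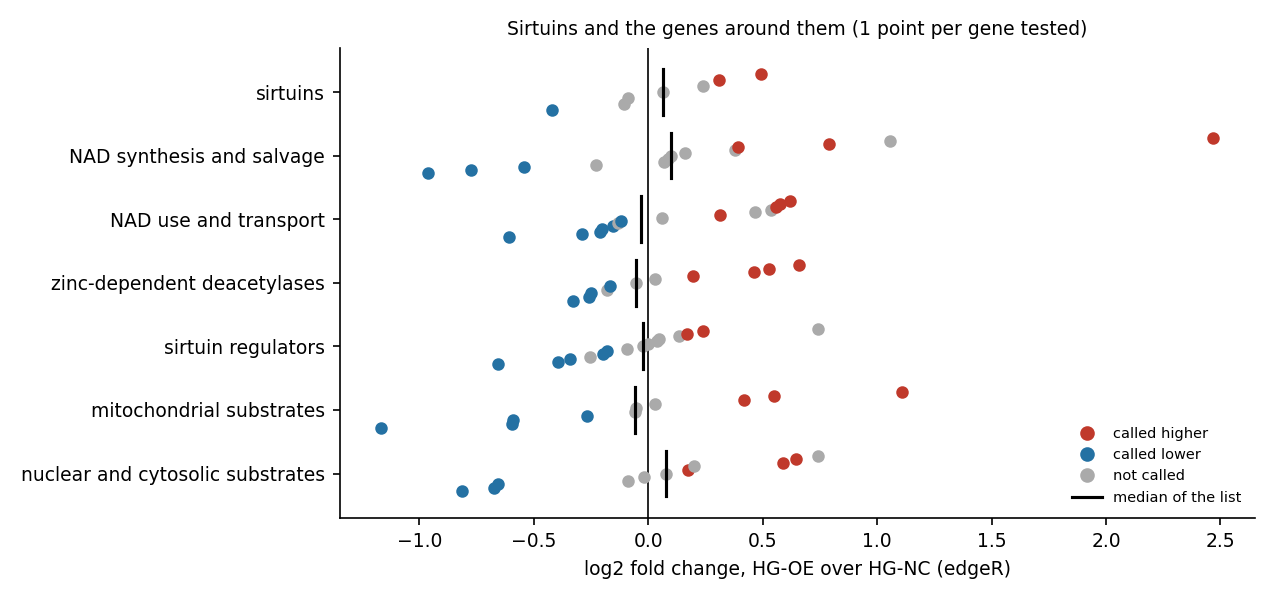
Each point is the log2 fold change of 1 tested gene between HG-OE and HG-NC, grouped by list, red when called higher, blue when called lower and grey when not called, with the median of each list as a black line. The medians of all lists lie between -0.06 and 0.10, and called genes stand on both sides of 0 in each list.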

How the data were processed

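RNA-seq counts per gene were analysed for 6 libraries of HK-2 cells in high glucose, 3 HG-NC and 3 HG-OE. Groups follow the labels, and the glucose treatment follows the study's methods. The members and gene lists were chosen with earlier results of these data known.

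The authors dropped reads with many unknown bases, trimmed them, aligned them to GRCh38 with HISAT2 (as the submitters' processing notes name it) and deposited whole-number counts of uniquely mapped reads per gene, without normalization. The authors also deposited FPKM values, which divide the counts by gene length and library size. ComBat_seq is named in the methods for batch correction. Whether it entered these counts, which batches it used, and the gene annotation and strand setting of the counting are not given in the sources used here. No batch term was fitted.

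In R 4.3.3, edgeR 4.0.16 kept 17142 of 31831 genes with its default low-count filter, and its quasi-likelihood test with TMM scaling and Benjamini-Hochberg adjustment over all genes tested compared the groups. Calls were made at an adjusted p under 0.05, and a 2-fold change was used as a second threshold. CPM are counts scaled to library size with TMM factors. The totals of 25507595 to 29444841 counts per library limit the precision, and a count of 0 allows up to 3 counts, by counting error only. Levels between genes were compared by FPKM, and pairs of members by their FPKM ratio within a library with an exact two-sided permutation test.

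The genes named were the 7 sirtuins, HNRNPF, the members of the lists, with values for at most the 3 largest rises and the 3 largest falls of each list among those called, and the 3 genes with a mean of at least 100 counts whose log2 CPM (prior count 2) followed SIRT5 or SIRT1 most closely. CCAR2, CD38, the cell markers, the genes that overlap a sirtuin and the genes nearest to SIRT1 were named after their values were seen. Same-numbered libraries of the groups did not deviate together (r = -0.03, 0.03 and -0.001 across genes), and the main test did not pair them. Whether same-numbered libraries were handled together is not given in the sources used here. Replicates of a group differed beyond sampling noise. The mean chi-square per gene was 11.8 and 12.3 for the pairs with HG-OE replicate 3 and 2.37 to 4.10 for the other pairs within a group. Each was counted as a library of its own, and this spread does not show whether the libraries come from separate cultures.

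Alternatives were the size factors of DESeq2, no filter, at least 10 counts in every library, a replicate block, each library left out, DESeq2 1.42.0, limma 3.58.1 on log2(FPKM + 1) or log2(FPKM + 0.1), where the mean FPKM had to reach 0.1, or without that filter, and the median of neighbours within 10 Mb removed. Positions are those of GENCODE release 44 on GRCh38, which matched 17110 of the genes tested by identifier, and promoters are RefSeq windows on GRCh38.p14, which checked base for base against the genome sequence. Windows were found for 6 of the 7 members. The scripts were tested on simulated data. Some members of the lists are not reported here by name.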

Additional observations from a re-analysis of the deposited data

How the results depend on the processing

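SIRT1 was called lower and SIRT5 higher under all 14 alternatives with a test, with log2 fold changes from -0.44 to -0.36 for SIRT1 and from 0.28 to 0.52 for SIRT5, the smallest being on the log2(FPKM + 1) scale, which understates changes of low genes. SIRT3 kept its direction, at 0.18 to 0.40, but was called under 6 of 14, with adjusted p from 0.0163 to 0.13. Beside the libraries named in the report, it lost its call without the low-count filter (adjusted p = 0.0565), in the DESeq2 Wald test (0.0853) and in limma on log2(FPKM + 1) (0.0602, and 0.126 with no filter) and on log2(FPKM + 0.1) (0.0591). The other 4 sirtuins were called under none, with adjusted p from 0.124 to 0.888. With the replicate block, the same 3 sirtuins were called, 41 list genes were called in place of 43, and it changed no call of a sirtuin. With each library left out, 2 to 3 sirtuins and 39 to 46 list genes were called, and 14 to 17 pairs did not overlap. Limma on FPKM called 3 in place of 6 genes of NAD+ synthesis with the filter on low values and 5 without it, and 36 genes of all lists in each case. Of the results given with a test or count, no value reversed. With the neighbours' median removed, a value with no test, SIRT7 went from -0.09 to 0.06 and SIRT2 from 0.07 to 0.22. The count of calls over all genes was 7065 to 9355. SIRT4, at 21 to 35 counts, was limited by depth, and 3 libraries per group limit the other intervals.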
